A study of Mus musculus with 36 samples.

Results

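RNA levels of 6 noncoding genes were followed in 36 total RNA libraries of MEF (mouse embryonic fibroblast) cells. They were chosen by symbol out of 54842 gene entries of the count table. Gm26917, Gm42418 and AY036118 are annotated as long intergenic RNAs but lie over ribosomal RNA sequence, and they were picked because their counts are high and set replicates apart. For these 3 genes the level and the spread between replicates are therefore a description and not a finding. Neat1, Malat1 and Kcnq1ot1 are nuclear long noncoding RNAs.

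There were 2 lines, MSR-dCas9-Control and MSR-dCas9-Activator, and 3 replicates of either line in each of 6 states. Both lines carry a constitutively expressed guide RNA against the major satellite repeat (MSR) and a doxycycline-inducible dCas9. In the MSR-dCas9-Activator line the dCas9 is fused to VPR, a transcriptional activator. The states were uninduced, induced (10 ng/ml doxycycline, for 24 h in MSR-dCas9-Control cells but 6 h in MSR-dCas9-Activator cells), and 3 h, 6 h, 12 h and 24 h past its withdrawal. The lines therefore differed in effector and in how long they had seen doxycycline. Both were made by PiggyBac transposition with hygromycin selection and kept as mixed cultures, not as clones. Levels below are TMM-normalised counts per 1e+06 gene counts (CPM), listed in the order of replicates 1, 2 and 3.

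In a mammalian cell the ribosomal DNA is copied by RNA polymerase I into a long precursor that runs from the 5′ external transcribed spacer through 18S, the internal transcribed spacers, 5.8S and 28S rRNA. The spacers are cut out and degraded in the nucleolus, so reads from a spacer mark the precursor and its processing intermediates, while 18S and 28S reads come mostly from mature ribosomes. Ribosomal RNA depletion before library construction removes most of the mature rRNA, and what remains depends on the depletion. Neat1 is the scaffold of the paraspeckle, a nuclear body, Malat1 is an abundant RNA of nuclear speckles, and Kcnq1ot1 is an imprinted antisense RNA that silences genes around Kcnq1 on the paternal chromosome.

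The 3 rRNA-like genes lie next to each other on chromosome 17 (GRCm38, GENCODE M21). Gm26917 (ENSMUSG00000097971) covers chr17:39843013-39846341 on the plus strand, 3329 bases with 69.1% G and C. An entry annotated as rRNA on the minus strand, CT010467.1 (ENSMUSG00000106106), starts after a gap of 11 bases. Read on the plus strand, its 1849-base transcript begins and ends with the bases known for mature 18S rRNA, so Gm26917 sits where the 5′ external transcribed spacer is. Gm42418 (ENSMUSG00000098178, chr17:39846958-39848788, plus strand, 1831 bases) has its first 1244 bases inside this 18S stretch and its last 587 bases beyond it, in the place of the first internal transcribed spacer. AY036118 (ENSMUSG00000105361, chr17:39847113-39848035, minus strand, 923 bases) is the reverse complement of a part of Gm42418 and lies wholly within the 18S stretch. The junctions are shown because they decide which kind of rRNA read each gene can hold. Capitals mark bases of the 18S stretch on the plus strand. The 4 windows are the end of Gm26917 (chr17:39846282-39846341), the start of 18S (chr17:39846353-39846412), the 18S to spacer junction within Gm42418 (chr17:39848142-39848261) and, on the minus strand and in lower case, the first 60 bases of AY036118 (chr17:39847976-39848035).
Gm26917 end: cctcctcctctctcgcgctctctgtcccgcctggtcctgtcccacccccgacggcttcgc
18S start: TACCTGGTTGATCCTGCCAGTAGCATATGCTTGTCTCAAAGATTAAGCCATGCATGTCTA
Gm42418 junction: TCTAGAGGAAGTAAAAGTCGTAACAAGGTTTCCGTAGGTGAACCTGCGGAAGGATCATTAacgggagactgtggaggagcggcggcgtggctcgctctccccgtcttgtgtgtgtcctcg
AY036118 start: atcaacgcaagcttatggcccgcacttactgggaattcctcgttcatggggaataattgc

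Because these genes overlap, their counts are not independent. The library kit marks strand, but the strand setting of the counting and its mode for reads with several matches are not given in the sources used here. CT010467.1 held 0.985 to 1.14 times the summed counts of Gm42418 and AY036118 in 35 libraries, although Gm42418 lies on the other strand. Counts of Gm42418, AY036118 and CT010467.1 thus cannot be assigned to one of them with certainty, and ribosomal DNA has many copies outside this locus.

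Gene counts per library ranged from 27376846 to 57371803. Counts of GSAT_MM, the targeted major satellite, lay between 22.6 and 47.1 CPM in the 18 MSR-dCas9-Control libraries. In uninduced MSR-dCas9-Activator libraries, the baseline of comparisons within that line, they were already higher, at 99.3, 52.1 and 92.0 CPM. They lay between 2362 and 47244 CPM in the 15 MSR-dCas9-Activator libraries from induction on. Of 15 fibroblast markers, 14 reached at least 1 CPM in a library. The exception was Thy1, and the summed level of the list ran from 24323 to 37637 CPM in the MSR-dCas9-Control line and from 12029 to 37233 in the MSR-dCas9-Activator line. Endothelial markers (6 genes) summed to at most 1.95 CPM in the first line and 47.4 in the second, where Cdh5 stayed below 1 CPM, and their part in the results below was not tested. One library stood apart from the rest, MSR-dCas9-Activator replicate 3 of the 12 h state. Its counts in LSU-rRNA_Hsa, the repeat entry for large-subunit rRNA, were 89587 CPM, against at most 926 in the other 35 libraries.

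In MSR-dCas9-Control libraries the 3 rRNA-like genes together took between 1.01% and 7.91% of all gene counts. From induction on they took between 3.35% and 17.2% in MSR-dCas9-Activator libraries. Nearly all of it was Gm26917, which alone reached 15.9% of gene counts. It had the highest count of any gene in 35 of the 36 libraries and ranked 4 in the remaining one. In every MSR-dCas9-Control state replicate 1 had the smallest share and replicate 3 the largest.

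**Figure D1:**
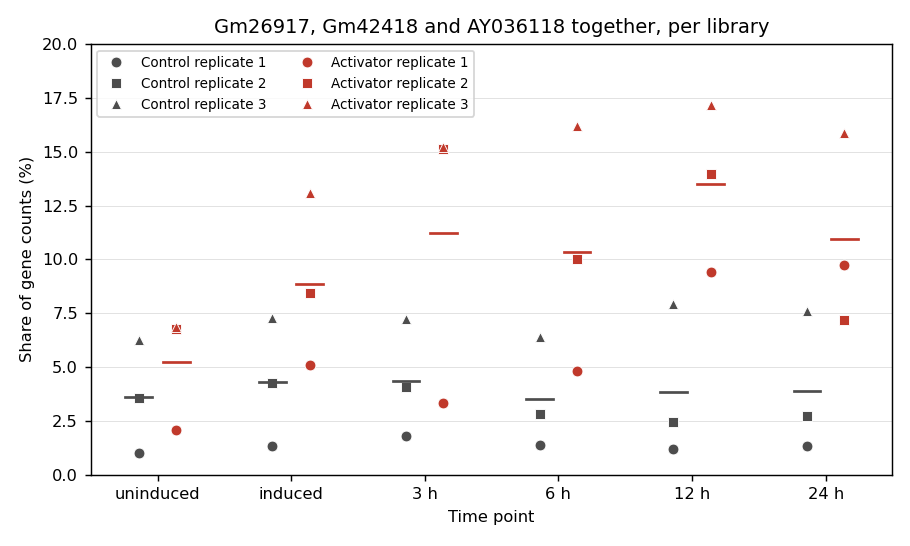
Share of gene counts (%) held by Gm26917, Gm42418 and AY036118 together in each of 36 libraries, by state (x axis, uninduced, induced and hours after doxycycline removal). Grey points are MSR-dCas9-Control and red points MSR-dCas9-Activator libraries, the shape gives the replicate number and the bar is the mean of 3. The MSR-dCas9-Control libraries run from 1.01% to 7.91% and the highest MSR-dCas9-Activator library reaches 17.2%.

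Gm26917, the 5′ spacer gene, stood at 9103, 32243 and 58935 CPM in uninduced MSR-dCas9-Control cells and at 18854, 60039 and 62289 in uninduced MSR-dCas9-Activator cells. The lines overlapped in this state, with replicate 1 lowest in both. At the end of induction the MSR-dCas9-Control values were 11934, 37924 and 68576 CPM, and the MSR-dCas9-Activator values 48004, 79375 and 136672. At 3 h after doxycycline removal they were 16944, 37196 and 71851 against 32887, 155119 and 178429. In both states each MSR-dCas9-Activator library lay above the MSR-dCas9-Control library of the same number, while the groups as a whole still overlapped.

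At 6 h Gm26917 was at 11495, 24362 and 60253 CPM in MSR-dCas9-Control cells and at 49542, 91591 and 183851 in MSR-dCas9-Activator cells. At 12 h the values were 10485, 21389 and 75276 against 93609, 124844 and 187948, and at 24 h 11198, 22977 and 70649 against 82690, 57592 and 145807. Only at 12 h did all MSR-dCas9-Activator libraries exceed all MSR-dCas9-Control libraries, as did those of 39.9% of all genes tested at that time. In all 18 pairs of equal replicate number, over the 6 states, the MSR-dCas9-Activator library was the higher one, by 1.06 to 8.93 times. This includes the pairs before induction. For how many other genes it holds was not counted, and the pairing uses the replicate differences that this gene was picked for. Ordered by mean, the 6 MSR-dCas9-Activator states came first, from 135467 ± 48058 CPM (SD, n = 3) at 12 h down to 47061 ± 24454 (SD, n = 3) uninduced. The 6 MSR-dCas9-Control states followed, between 41997 ± 27767 (SD, n = 3) and 32036 ± 25269 (SD, n = 3), and every group overlapped its neighbour in this order.

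With the replicate number in the model, Gm26917 differed between the lines by 0.69 on the log2 scale before induction (standard error 0.36, edgeR adjusted p = 0.541). It was higher in MSR-dCas9-Activator cells by 1.35 at the end of induction (standard error 0.37, edgeR adjusted p = 0.00284), 1.52 at 3 h (adjusted p = 7.31e-04), 1.87 at 6 h (adjusted p = 8.52e-05), 2.35 at 12 h (adjusted p = 5.42e-06) and 1.89 at 24 h (adjusted p = 1.14e-04). A gene was called when its adjusted p was under 0.05, its log2 fold change beyond 1 and its mean normalised count above 100, and Gm26917 was called at these 5 time points. Of all 28536 genes tested, 0.214% were called before induction, and 8.48%, 12.8%, 13.9%, 15.2% and 7.46% in the 5 states from the end of induction to 24 h. These calls rest on the replicate number, which takes up the very differences that the gene was chosen for. Without it the log2 fold changes were 1.16, 1.54, 1.76, 1.92 and 1.45 from the end of induction to 24 h, with edgeR adjusted p-values of 0.271, 0.121, 0.0764, 0.0540 and 0.157. With the replicate number, DESeq2 gave 1.43, 1.65, 2.05, 2.56 and 2.06, with adjusted p-values of 0.195, 0.113, 0.0462, 0.0118 and 0.0531. Scaled to the 13 mitochondrially encoded mRNAs, the differences were 0.98, 0.96, 1.1507, 1.73 and 1.63. These mRNAs were themselves higher in MSR-dCas9-Activator cells up to 12 h, as given below.

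Within the MSR-dCas9-Activator line Gm26917 rose from its uninduced level by 0.93 on the log2 scale at the end of induction (standard error 0.36, edgeR adjusted p = 0.0296). In the 4 later states the rise was 1.26, 1.14, 1.67 and 1.22, each called. Called in this line were 8.43%, 12.7%, 13.9%, 14.9% and 7.2% of all genes in the 5 states. These 4 calls of Gm26917 were lost without the replicate number, with edgeR adjusted p-values from 0.119 to 0.323, and under DESeq2, with adjusted p-values from 0.0667 to 0.209. In the MSR-dCas9-Control line the same differences lay between -0.04 and 0.43, and none passed the test. The change from uninduced differed between the lines by 1.66 at 12 h (standard error 0.51, edgeR adjusted p = 0.00908), where 51% of all genes passed the same test. It was 1.43 without the replicate number (edgeR adjusted p = 0.357) and 1.88 under DESeq2 (adjusted p = 0.224). At the other 4 time points this difference was 0.66, 0.84, 1.18 and 1.20 with adjusted p-values from 0.0564 to 0.341. In bulk RNA, more cells with the transcript and more transcript per cell cannot be told apart.

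Gm42418, which spans the 3′ part of 18S and the spacer after it, had lower counts than Gm26917 in every library. Per kilobase its mean over 36 libraries was 2124 CPM against 20376 for Gm26917. Before induction it stood at 632, 3305 and 4663 CPM in MSR-dCas9-Control cells and at 1548, 5609 and 4031 in MSR-dCas9-Activator cells. At the end of induction the values were 999, 3722 and 4864 against 3073, 6200 and 6832, and at 3 h 1208, 3378 and 5340 against 1333, 8381 and 7804. In these 3 states the groups overlapped, and replicate 1 was the lowest library of each group.

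At 6 h Gm42418 was at 971, 2222 and 4322 CPM in MSR-dCas9-Control cells and at 2257, 4250 and 6982 in MSR-dCas9-Activator cells. The 12 h values were 795, 2150 and 5549 against 4305, 4700 and 10625, and the 24 h values 784, 2071 and 4394 against 3362, 2533 and 4812. The groups overlapped again at all 3 times. In the fit with the replicate number Gm42418 was called higher in MSR-dCas9-Activator cells at 12 h, by 1.52 on the log2 scale (standard error 0.42, edgeR adjusted p = 0.00242). It was also called at 24 h, by 1.02 (standard error 0.42, edgeR adjusted p = 0.0371). At 6 h the difference of 0.95 passed the adjusted p (0.0430 in edgeR) but not the limit on the fold, and the differences of 0.61, 0.96 and 0.77 at the earlier times did not pass the test. Without the replicate number no call was left, with edgeR adjusted p-values of 0.201 at 12 h and 0.579 at 24 h. Without all libraries numbered 1 the 24 h difference was 0.20 (edgeR adjusted p = 0.647).

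Gm26917 and Gm42418 went up and down together between libraries. After removal of group means, Pearson's correlation of log2(CPM + 1) was 0.976 over the 36 libraries and 0.977 without the outlying one, as a description of genes that neighbour each other in the same precursor and share library, depth and depletion. AY036118, which lies inside Gm42418, did not follow them (-0.0638 with Gm42418 and -0.144 with Gm26917). Their ratio, which needs no scaling between libraries, held closer than either level. In the 18 MSR-dCas9-Control libraries there were between 9.76 and 16.1 Gm26917 counts for each Gm42418 count, although the level of Gm26917 varied by 8.27 times.

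In the MSR-dCas9-Activator line this ratio was 12.2, 10.7 and 15.5 before induction, within the range of the other line. It was 15.6, 12.8 and 20.01 at the end of induction and 24.7, 18.5 and 22.9 at 3 h. At 6 h it was 22.0, 21.6 and 26.3, at 12 h 21.7, 26.6 and 17.7, and at 24 h 24.6, 22.7 and 30.3. From 3 h on all 12 MSR-dCas9-Activator libraries lay above all 18 MSR-dCas9-Control libraries. How many other gene pairs part the lines in this way was not counted. Of single genes, 39.9% were wholly higher and 33.7% wholly lower in MSR-dCas9-Activator libraries at 12 h. The difference in mean log2 ratio between the lines was 0.06 before induction (standard error 0.23) and 0.41 at its end (standard error 0.23). Afterwards it was 0.78 (standard error 0.16) at 3 h, 0.93 (standard error 0.14) at 6 h, 0.84 (standard error 0.22) at 12 h and 0.91 (standard error 0.20) at 24 h. A two-sided exact permutation test gave p = 0.1 at each of the last 4 time points (0.15 after Benjamini-Hochberg adjustment over 6), which is the smallest p that 3 libraries against 3 can reach. Paired by replicate number, the ratio was higher in MSR-dCas9-Activator cells in 2 of 3 pairs before induction and in 3 of 3 pairs in each later state. The standard error of the paired difference was 0.16 before induction and 0.05, 0.02, 0.02, 0.30 and 0.07 in the 5 states after it. The pairs differed by 0.39, 0.33 and 0.51 when induction ended. A two-sided exact permutation test over pairs gave p = 0.25 in these 5 states, the smallest that 3 pairs allow. The ratio and its pairing were chosen after the values of both genes had been seen.

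**Figure D2:**
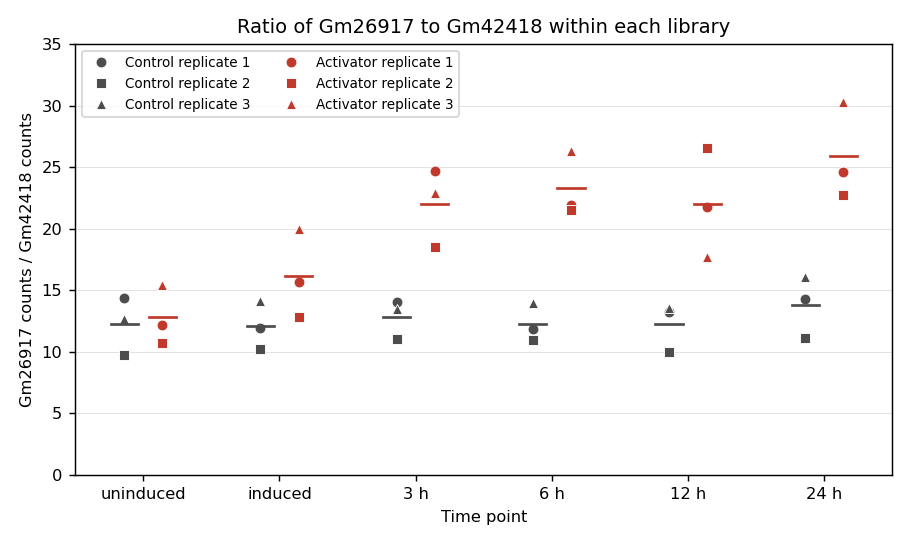
Gm26917 counts divided by Gm42418 counts (y axis) in each library, by state. Grey points are MSR-dCas9-Control and red points MSR-dCas9-Activator libraries, the shape gives the replicate number and the bar is the mean of 3. MSR-dCas9-Control libraries stay between 9.76 and 16.1, and MSR-dCas9-Activator libraries from 3 h on lie between 17.7 and 30.3.

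AY036118, on the strand opposite to 18S, was the least abundant of the 3. In uninduced cells it stood at 126, 106 and 107 CPM in the MSR-dCas9-Control line and at 90.6, 51.9 and 51.0 in the MSR-dCas9-Activator line. At the end of induction the values were 129, 134 and 67.2 against 130, 220 and 103. At 3 h they were 127, 70.6 and 66.3 against 149, 109 and 74.4. The lines did not overlap before induction, with MSR-dCas9-Activator libraries lower, as held for 7.95% of all genes in that direction, and they overlapped in the next 2 states.

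At 6 h AY036118 was at 170, 99.5 and 209 CPM in MSR-dCas9-Control cells and at 236, 93.2 and 91.6 in MSR-dCas9-Activator cells. At 12 h the values were 66.3, 66.2 and 75.4 against 331, 112 and 4017, and at 24 h 80.9, 86.1 and 78.8 against 211, 126 and 127. At both of these late times all MSR-dCas9-Activator libraries were above all MSR-dCas9-Control libraries, as were those of 32.7% of all genes at 24 h. The difference at 12 h was 4.39 on the log2 scale (standard error 0.83, edgeR adjusted p = 5.64e-05). Without the outlying replicate 3 it was 1.52 (edgeR adjusted p = 0.00135). Differences at the other times lay between -0.83 and 0.88, with adjusted p-values from 0.291 to 0.793.

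The level of AY036118 moved with that of LSU-rRNA_Hsa. Over the 36 libraries Pearson's correlation of log2(CPM + 1) was 0.944 and Spearman's 0.789, and Pearson's was 0.840 in the 35 libraries without the outlying one, a description over libraries that share the same normalisation. For Gm26917 the corresponding values were 0.436, 0.602 and 0.486. The outlying library was high in other RNAs with ribosomal sequence too. mt-Rnr2, the mitochondrial large-subunit rRNA, stood at 6139 CPM against at most 726 elsewhere. mt-Rnr1 stood at 1915 against at most 760, and Lars2, a mitochondrial tRNA synthetase gene, at 235 against at most 35.02. CT010467.1 held 1.51 times the summed counts of Gm42418 and AY036118 there.

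**Figure D3:**
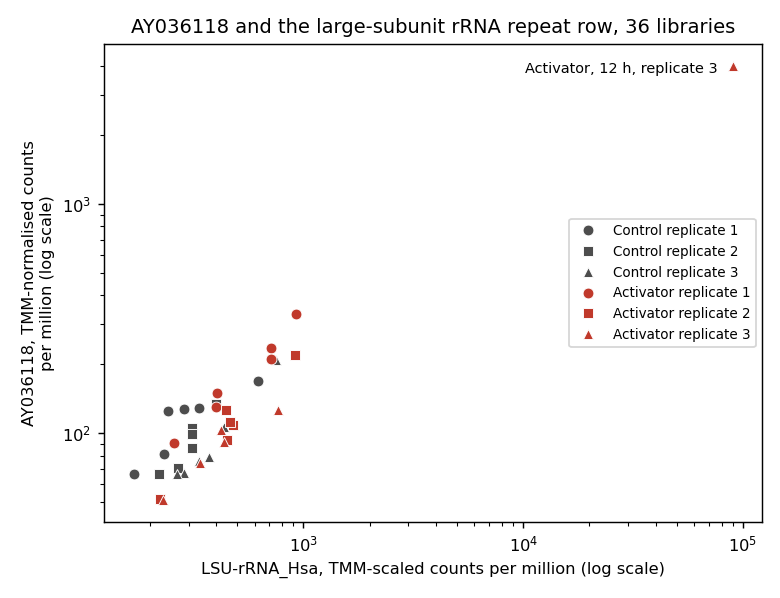
AY036118 (y axis, CPM, log scale) against the large-subunit rRNA repeat entry LSU-rRNA_Hsa (x axis, CPM, log scale) in 36 libraries. Grey points are MSR-dCas9-Control and red points MSR-dCas9-Activator libraries, and the shape gives the replicate number. The 12 h replicate 3 of MSR-dCas9-Activator cells lies apart at 4017 CPM.

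Neat1 (ENSMUSG00000092274, chr19:5824708-5845478) and Malat1 (ENSMUSG00000092341, chr19:5795690-5802672) are neighbours on the minus strand of chromosome 19, 22035 bases apart. Malat1 and the long isoform of Neat1 end without a poly(A) tail, at a site cut by RNase P next to an A-rich tract that pairs with U-rich stretches upstream into a triple helix, which stabilises the RNA. Neat1 also has a short, polyadenylated isoform, and its count holds both. Their 3′ sequences are shown because the ends of these neighbours resemble each other. Capitals mark stretches of 10 or more bases present in both windows of 100 bases (chr19:5795982-5796081 for Malat1 and chr19:5824708-5824807 for Neat1), which are 3 stretches of 40 bases in all.
Malat1: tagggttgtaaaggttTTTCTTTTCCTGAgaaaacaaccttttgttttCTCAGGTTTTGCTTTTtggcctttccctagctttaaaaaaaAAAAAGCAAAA
Neat1: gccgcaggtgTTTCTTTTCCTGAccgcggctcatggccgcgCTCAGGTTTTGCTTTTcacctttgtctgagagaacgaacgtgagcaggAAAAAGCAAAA

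Neat1 stood at 936, 799 and 1026 CPM in uninduced MSR-dCas9-Control cells and at 996, 1163 and 1178 in uninduced MSR-dCas9-Activator cells. At the end of induction the values were 735, 940 and 1042 against 903, 1011 and 823, and at 3 h 830, 918 and 702 against 621, 960 and 475. At each of these times the lines overlapped. At 6 h the values were 1121, 1024 and 885 in MSR-dCas9-Control cells and 431, 1589 and 481 in MSR-dCas9-Activator cells. They were 1236, 1161 and 923 against 645, 1518 and 775 at 12 h and 1317, 1273 and 1132 against 1069, 1460 and 1059 at 24 h. Replicate 2 of MSR-dCas9-Activator cells was thus the highest of all 6 libraries at these 3 times, while replicates 1 and 3 were below all MSR-dCas9-Control libraries.

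No difference in Neat1 between the lines passed the test, with log2 fold changes between -0.40 (6 h, standard error 0.29, edgeR adjusted p = 0.221) and 0.25 (uninduced). The wide spread between MSR-dCas9-Activator replicates goes into these errors. Without replicate 2 of the MSR-dCas9-Activator line the 6 h difference was -1.01 (edgeR adjusted p = 7.21e-04), and without all libraries numbered 2 it was -0.97. Within the MSR-dCas9-Activator line Neat1 fell by 0.75 at 3 h (standard error 0.29, edgeR adjusted p = 0.0244), short of the limit on the fold, and returned to 0.08 above the uninduced level at 24 h. Between the lines, 70.9% of all genes passed the adjusted p alone at 3 h, and the share within this line is not given here. In the order of the 12 groups every neighbour overlapped, from 1241 ± 96.6 CPM (SD, n = 3) in MSR-dCas9-Control cells at 24 h to 686 ± 249 (SD, n = 3) in MSR-dCas9-Activator cells at 3 h.

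Malat1 ranked between 2 and 18 among all genes of a library by count. Before induction it stood at 5568, 5244 and 5466 CPM in MSR-dCas9-Control cells and at 7222, 6789 and 7745 in MSR-dCas9-Activator cells. The lines did not overlap, with MSR-dCas9-Activator libraries higher, as were those of 8.56% of all genes before induction. After induction the values were 4175, 4952 and 4702 against 4486, 5956 and 4481, and at 3 h 4415, 5078 and 4288 against 4672, 4973 and 4085. At 6 h they were 6321, 5702 and 4852 against 4462, 8568 and 3972. From induction on the lines overlapped.

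At 12 h Malat1 was at 4485, 4635 and 3701 CPM in MSR-dCas9-Control cells and at 3858, 5570 and 3739 in MSR-dCas9-Activator cells. At 24 h the values were 5928, 6561 and 4610 against 4870, 10153 and 4936. Replicate 2 of the MSR-dCas9-Activator line was again the highest library at 6, 12 and 24 h. Differences between the lines were between -0.04 and 0.42 on the log2 scale, the largest before induction (standard error 0.18, edgeR adjusted p = 0.371), and none passed the test.

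Within the MSR-dCas9-Activator line Malat1 fell from its uninduced level by 0.57 at the end of induction (edgeR adjusted p = 0.00775), 0.68 at 3 h (adjusted p = 0.00139), 0.42 at 6 h (adjusted p = 0.0370) and 0.76 at 12 h (adjusted p = 4.42e-04), each with a standard error of 0.18. The difference at 24 h, -0.19, did not pass. None of these falls reached the limit of 1 on the fold. Between the lines, 57.3%, 70.9%, 74.1% and 75.2% of all genes passed the adjusted p alone at these times. The share within the MSR-dCas9-Activator line and the falls without the replicate number are not given here. In the MSR-dCas9-Control line the differences ran from -0.36 to 0.05 and did not pass the test. Set against the other line, this change differed by -0.46 to -0.24, with edgeR adjusted p-values from 0.132 to 0.515. The order of Malat1 by mean began with uninduced MSR-dCas9-Activator cells (7252 ± 478 CPM, SD, n = 3) and ended with MSR-dCas9-Control cells at 12 h (4274 ± 502, SD, n = 3), all neighbours overlapping.

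Neat1 and Malat1 varied together. After removal of group means their correlation was 0.808 over the 36 libraries (0.805 without the outlying one), for 2 neighbouring nuclear RNAs measured in the same libraries. Neat1 also varied with Kcnq1ot1 (0.787). Per kilobase, the mean level over 36 libraries was 761 CPM for Malat1, 47.0 for Neat1 and 3.41 for Kcnq1ot1.

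**Figure D4:**
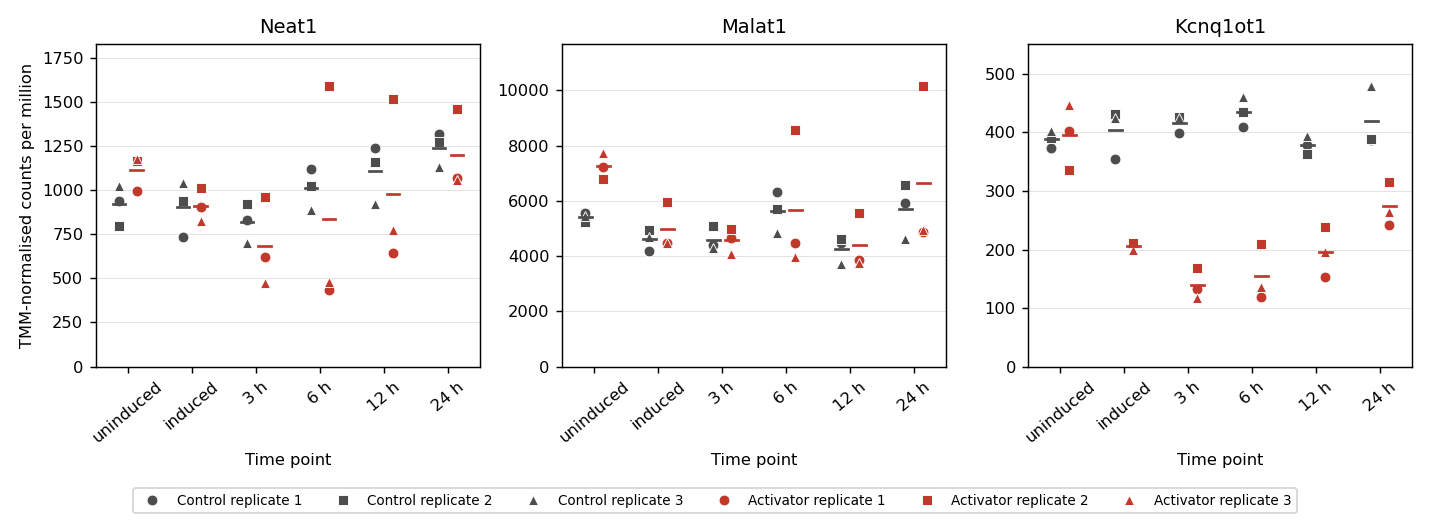
TMM-normalised level (y axis, CPM) of Neat1, Malat1 and Kcnq1ot1 in each library, by state. Grey points are MSR-dCas9-Control and red points MSR-dCas9-Activator libraries, the shape gives the replicate number and the bar is the mean of 3. Replicate 2 of the MSR-dCas9-Activator line is the highest Malat1 library at 6, 12 and 24 h, and Kcnq1ot1 in MSR-dCas9-Activator cells falls to between 118 and 168 at 3 h.

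Kcnq1ot1 (ENSMUSG00000101609, chr7:143203458-143296549, minus strand) is a single unspliced exon of 93092 bases inside Kcnq1, which is read from the other strand. Its promoter lies in the imprinting control region of the domain. The 300 bases around its RefSeq start (250 before and 50 after, chr7:143296498-143296797, minus strand, GRCm38.p6) are shown because Kcnq1ot1 differed between the lines at all 5 times from induction on. Capitals mark CCAAT, searched on both strands.
Kcnq1ot1 promoter: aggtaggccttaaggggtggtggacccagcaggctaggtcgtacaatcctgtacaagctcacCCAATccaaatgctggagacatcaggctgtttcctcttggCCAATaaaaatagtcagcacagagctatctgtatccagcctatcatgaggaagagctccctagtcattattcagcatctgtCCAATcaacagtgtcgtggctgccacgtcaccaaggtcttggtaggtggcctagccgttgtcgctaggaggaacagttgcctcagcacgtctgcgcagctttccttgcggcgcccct
CCAAT occurs 3 times there. Of 32851 promoters of this length, 37.4% hold it at least once on either strand and 3.37% at least 3 times.

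Kcnq1ot1 stood at 373, 391 and 403 CPM in uninduced MSR-dCas9-Control cells and at 402, 336 and 447 in uninduced MSR-dCas9-Activator cells. The lines overlapped. MSR-dCas9-Control libraries were at 354, 432 and 424 CPM when induction ended, at 399, 426 and 424 at 3 h and at 409, 435 and 461 at 6 h. They were at 379, 363 and 394 at 12 h and at 388, 390 and 479 at 24 h, so that all 18 lay between 354 and 479 CPM. At the end of induction the MSR-dCas9-Activator libraries were at 210, 211 and 199 CPM, at 3 h at 133, 168 and 118, and at 6 h at 118, 210 and 135. They were at 154, 239 and 196 at 12 h and at 242, 315 and 264 at 24 h. In all 15 libraries from induction on, MSR-dCas9-Activator cells had less Kcnq1ot1 than any MSR-dCas9-Control library of the same time. The share of all genes that were apart in this direction was 26.1%, 31.6%, 30.9%, 33.7% and 28.8% in these 5 states.

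Between the lines Kcnq1ot1 differed by 0.03 before induction (standard error 0.14, edgeR adjusted p = 1.00). It was lower in MSR-dCas9-Activator cells by -0.96 at the end of induction (standard error 0.14, edgeR adjusted p = 2.13e-06), -1.58 at 3 h (adjusted p = 1.84e-10), -1.51 at 6 h (adjusted p = 3.86e-10), -0.96 at 12 h (adjusted p = 8.40e-07) and -0.62 at 24 h (adjusted p = 4.34e-04). It was called at 3 h and 6 h, and at the other 3 times the fold stayed inside the limit. An adjusted p under 0.05 between the lines was reached by 1.23% of all genes before induction and by 57.3%, 70.9%, 74.1%, 75.2% and 63.9% in the 5 states after. Under DESeq2 the 3 h value was -1.45. Scaling to the 13 mitochondrially encoded mRNAs, which were themselves higher in MSR-dCas9-Activator cells at 3 h, gave -2.17. Without the replicate number the 3 h value was -1.58 (edgeR adjusted p = 3.07e-09).

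Within the MSR-dCas9-Activator line Kcnq1ot1 fell from uninduced by 0.94, 1.51, 1.38, 1.03 and 0.54 on the log2 scale in the 5 states in turn, with edgeR adjusted p-values from 5.76e-10 to 0.00163. MSR-dCas9-Control cells changed by -0.04 to 0.16, and no time passed the test. The share of all genes that passed the adjusted p alone within the MSR-dCas9-Activator line is not given here. The changes of the lines differed by -0.99 (standard error 0.20, edgeR adjusted p = 5.40e-04) when induction ended and by -1.61, -1.54, -0.99 and -0.65 in the 4 states after it, the last with an edgeR adjusted p of 0.0139. At these 5 times 32.2%, 47.1%, 50.1%, 51% and 33.1% of all genes passed that test. In the order of the 12 groups by mean, the 6 MSR-dCas9-Control states and uninduced MSR-dCas9-Activator cells (378 ± 15.5 to 435 ± 25.8 CPM, SD, n = 3) each overlapped the next and were followed, apart from both neighbours, by MSR-dCas9-Activator cells at 24 h (274 ± 37.5, SD, n = 3). The 4 earlier MSR-dCas9-Activator states came last, down to 140 ± 25.7 (SD, n = 3) at 3 h.

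Of 16 genes of the Kcnq1 domain, 11 had counts enough to be tested. Cdkn1c, Phlda2 and Slc22a18, growth-restraining or transport genes that Kcnq1ot1 silences in other tissues, were not among them. Kcnq1, a potassium channel gene, was at 0.681 to 1.57 CPM in all libraries and differed between the lines by -0.01 at 3 h and 0.38 at 12 h (edgeR adjusted p = 0.164). None of the 11 was called higher at any time. Called lower were 2, 3, 5, 5 and 1 of them in the 5 states from the end of induction. Over all genes 5.71%, 9.45%, 10.3%, 10.9% and 4.12% were called lower and 2.78%, 3.39%, 3.6%, 4.29% and 3.34% higher, after 0.021% and 0.193% before induction. For the 11 genes the median difference was -0.56 at 3 h and -0.72 at 12 h, against 0.16 and 0.12 over all genes. Tnfrsf22 and Tnfrsf23, decoy receptors for TRAIL, were lower by -2.25 and -1.73 at 12 h. Dhcr7, an enzyme of cholesterol synthesis, was lower by -1.84, with 8.58 ± 4.44 CPM (SD, n = 3) against 28.7 ± 2.54 (SD, n = 3).

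**Figure D5:**
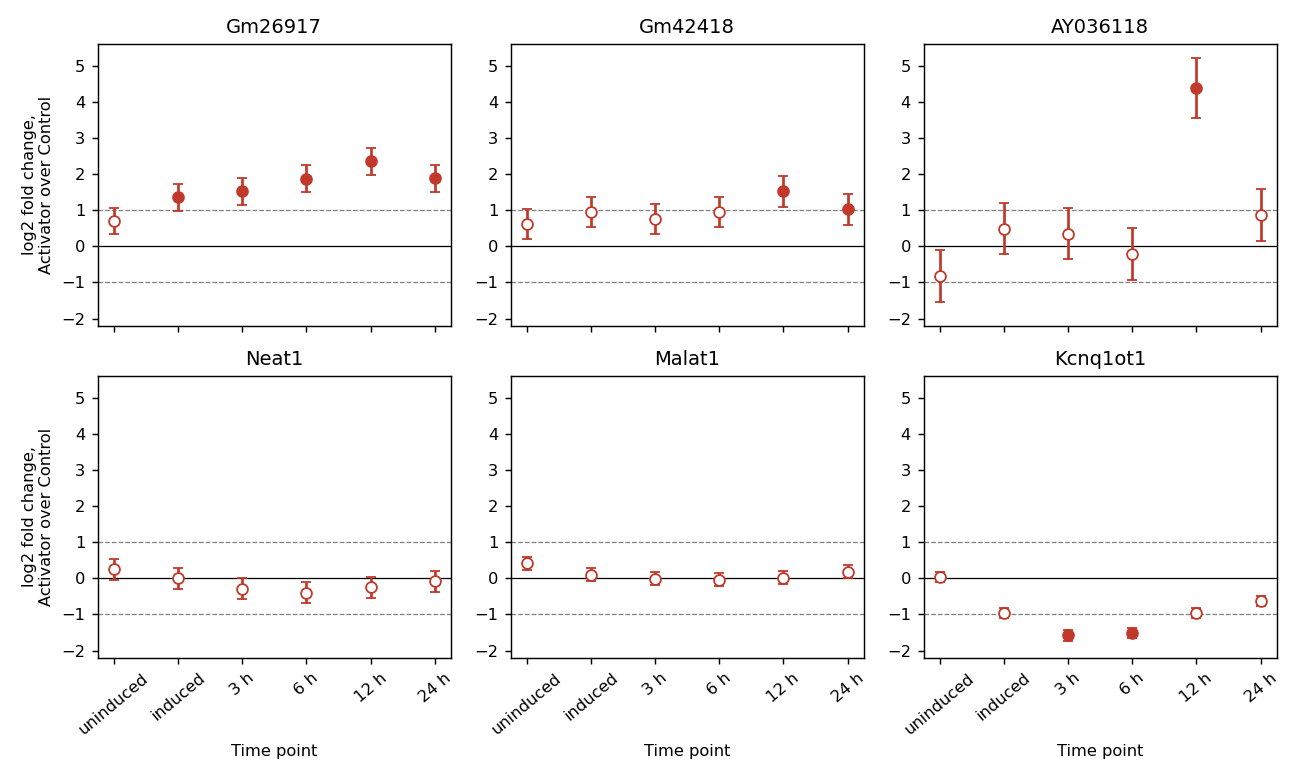
Log2 fold change of the 6 genes between the lines (MSR-dCas9-Activator over MSR-dCas9-Control, y axis) at 6 states, from edgeR with the replicate number in the model. Points are estimates from 3 libraries per group, bars are standard errors, filled points are called, and dashed lines mark a log2 fold change of 1 in either direction. Gm26917 is called at 5 time points, Kcnq1ot1 at 3 h and 6 h, Gm42418 at 12 h and 24 h and AY036118 at 12 h.

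Counted together, 0 of the 6 genes were called between the lines before induction, and 1, 2, 2, 3 and 2 in the 5 states from its end on. The shares of all genes were 0.214% before induction and 8.48%, 12.8%, 13.9%, 15.2% and 7.46% after it. All 3 calls at 12 h and both at 24 h were of rRNA-like genes, which were picked for their counts. These genes neighbour or overlap each other, so the calls are not independent and were not tested against these shares. In the MSR-dCas9-Activator line 8 of 30 comparisons with uninduced cells were called, which share the uninduced libraries, against 8.43%, 12.7%, 13.9%, 14.9% and 7.2% of all genes called in these states. In the MSR-dCas9-Control line 0 of 30 were called and 0 had an adjusted p under 0.05, against 0.0561%, 0.123%, 0.0806%, 0.263% and 0.109% of all genes called in the 5 states. The adjusted p alone was passed there by 0.214%, 0.55%, 0.403%, 1.05% and 0.788% of all genes.

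Genes whose pattern over the 36 libraries was most like that of a member were looked for among 13620 genes with a mean count of at least 100, by Pearson's correlation of log2(CPM + 1). For Gm26917 they were Scarna2 (0.958), a small Cajal body RNA, and Cox5b (0.949) and Cox8a (0.937), subunits of cytochrome c oxidase. After removal of group means the values were 0.940, 0.937 and 0.934. Scarna2 differed between the lines by 1.68 at 12 h in the fit with the replicate number. Its values there were 4.72, 7.37 and 18.1 CPM in MSR-dCas9-Control cells and 17.8, 34.4 and 35.1 in MSR-dCas9-Activator cells, which overlap. It was picked for its likeness to Gm26917 in these same libraries, so this difference is no separate evidence. For Neat1 the closest genes were Baz2b (0.865), Zkscan3 (0.864) and Gm37494 (0.862).

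For Malat1 the closest were an entry without a symbol in the annotation, ENSMUSG00000092267 (0.984), and Gm27694 (0.966). Gm27694 (chr19:5799000-5799085, minus strand) lies within Malat1, so both can hold the same reads. Abca1, a cholesterol exporter, followed with 0.865. For Kcnq1ot1 they were Capn15 (0.985), Nlk (0.981), a kinase, and Kdm2a (0.981), a histone demethylase that binds CpG islands, and 0.914, 0.913 and 0.838 after removal of group means. These are descriptions over libraries that share normalisation and states.

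Over all genes 9.45%, 10.3% and 10.9% were called lower at 3, 6 and 12 h, and 3.39%, 3.6% and 4.29% higher. Of 20 genes for paraspeckle proteins, 1 was called lower at these times and none higher at any time. It was Rbm14, which is needed for paraspeckle assembly, at 33.4 ± 3.96 CPM (SD, n = 3) against 102 ± 10.4 (SD, n = 3) at 12 h, a log2 fold change of -1.60 (edgeR adjusted p = 1.02e-14). The median of the list was -0.31 at 12 h, against 0.12 over all genes. Of 21 speckle and splicing genes, 1 was called higher and 2 lower at 3 h and at 6 h. At 12 h 1 was called higher and 1 lower, with a median of 0.07. The kinase gene Clk4 was higher by 1.48 and Srrm2, a core speckle protein, lower by -1.26.

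Of 28 other long noncoding RNAs tested, none was called higher in MSR-dCas9-Activator cells at any time. By the adjusted p alone, 7, 9, 8, 8 and 8 were higher and 15, 17, 17, 17 and 12 lower in the 5 states from the end of induction. Of all genes, 57.3%, 70.9%, 74.1%, 75.2% and 63.9% passed it in either direction. Called lower were 0 before induction and 9, 13, 12, 10 and 2 in the 5 states from its end on, where 5.71%, 9.45%, 10.3%, 10.9% and 4.12% of all genes were called lower. Their median difference was -0.92 at 3 h and -0.16 at 24 h, against 0.16 and 0.01 over all genes. The snoRNA host genes Snhg5 and Gas5 were lower by -2.31 and -1.76 at 12 h, with 59.3 ± 7.11 CPM (SD, n = 3) against 199.95 ± 20.5 (SD, n = 3) for Gas5. Peg13, an imprinted RNA, was lower by -1.90.

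Of 12 tested genes that flank Neat1 and Malat1, 1, 3, 2, 2 and 2 were called lower in the 5 states from the end of induction, and 1 was called higher, at 24 h. Over all genes 5.71%, 9.45%, 10.3%, 10.9% and 4.12% were called lower in these states and 3.34% higher at 24 h, and no test set the 12 genes against this background. Cdc42ep2, a binding partner of the GTPase Cdc42, was lower by -3.22 and Ehbp1l1, a membrane traffic protein, by -1.35 at 12 h, while Neat1 and Malat1 between them differed by -0.24 and 0.02. Of 14 genes for abundant structural RNAs or with rRNA sequence, 0, 0, 5, 10 and 2 were called higher in the 5 states. Over all genes 2.78%, 3.39%, 3.6%, 4.29% and 3.34% were called higher. Called lower were 1, 2, 2, 2 and 1 of the 14, against 5.71%, 9.45%, 10.3%, 10.9% and 4.12% of all genes. At 12 h, the state of the outlying library, the median of the 14 was 1.23 against 0.12 over all genes. The 3 with the largest change were mt-Rnr2 (3.85), mt-Rnr1 (2.67) and Lars2 (2.11), whose values rest on the outlying library named above, as their standard deviations show (2246 ± 3375 CPM for mt-Rnr2, SD, n = 3). Of 10 stress-inducible genes, 2, 1, 4, 4 and 4 were called higher in the 5 states, beside the shares of all genes just given. Among the 4 at 12 h were Atf3 (3.09), Trp53inp1 (3.08) and Cdkn1a (2.76). Before induction they differed by 0.54, 1.65 and 0.71, which did not pass the test. In this list 1 gene was called lower, at 6 h, where 10.3% of all genes were. All 13 mitochondrially encoded mRNAs were measured as a scale, which was itself higher in MSR-dCas9-Activator cells up to 12 h. Their median difference was 0.35, 0.60, 0.74, 0.58 and 0.05 in the 5 states, against 0.10, 0.16, 0.13, 0.12 and 0.01 over all genes. Called higher were 0, 1, 2, 3 and 0 of them, beside the same shares, and none was called lower. At 12 h mt-Nd4l was higher by 1.16, mt-Co3 by 1.13 and mt-Nd4 by 1.00.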

How the data were processed

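Total RNA was depleted of ribosomal RNA, made into libraries with a stranded kit and sequenced in read pairs. The authors used cutadapt for trimming, STAR for alignment (Ensembl GRCm38, in the settings that TEtranscripts recommends) and TEtranscripts for counting reads in genes and repeats. The deposited values are raw counts. The annotation release and, for the counting, the strand setting and the mode for reads with several matches are not given in the sources used here. The table holds 54842 gene entries (54495 matched GENCODE M21), 1561 repeat families and 1 entry with no name, which was left out (at most 0.00452% of counts).

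Counts were fitted with edgeR 4.0.16 (limma 3.58.1, R 4.3.3), by the quasi-likelihood test with robust dispersion. The fit held all 36 libraries in 12 groups, with the replicate number as a covariate as in the study's design. TMM factors came from gene counts, filterByExpr left 28536 genes, and p-values were adjusted by Benjamini-Hochberg over all of them. A standard error is the log2 fold change divided by the root of its F value. Called genes had an adjusted p under 0.05, a log2 fold change beyond 1 and a mean normalised count above 100. For the difference between the lines in their change, the adjusted p alone was used. The fit was tested on simulated counts with the same dispersion for every gene and no replicate effect. That test cannot show how the fit behaves for genes with large replicate differences such as Gm26917. Alternatives were DESeq2 1.42.0, other scalings, no filter, no replicate number, single time points and libraries left out in turn. Leaving out all libraries of 1 replicate number and pairing the Gm26917 to Gm42418 ratio by replicate number were added after the data were seen.

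The members and gene lists were chosen with earlier results of these data known. Named list genes are the 3 called genes with the largest change at 12 h in a list, and the 3 genes most correlated with Gm26917, Neat1, Malat1 or Kcnq1ot1. Replicates are those of the labels. The edgeR p-values weigh a difference against the spread that the fit over all 12 groups leaves once group and replicate number are accounted for. Fits without the replicate number weigh it against the full spread between libraries of a group. Each effector was carried by a single line, so these p-values cover no variation between lines made separately. Sequences are from GRCm38 transcripts (GENCODE M21) and a RefSeq promoter of Kcnq1ot1 (GRCm38.p6). Python 3.11.15, pandas 2.3.3, scipy 1.17.1 and matplotlib 3.10.9 were used for descriptions and plots.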

Additional observations from a re-analysis of the deposited data

Results flagged for a closer look

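The change of Kcnq1ot1 from uninduced cells was tested against that of the other line and differed in all 5 states from the end of induction on, by -0.99, -1.61, -1.54, -0.99 and -0.65 on the log2 scale. For Gm26917 the difference in this change passed the edgeR test at 12 h, with 1.66, but not without the replicate number (1.43, edgeR adjusted p = 0.357) or under DESeq2 (1.88, adjusted p = 0.224). For AY036118 it passed at 12 h with 5.22, a value that rests on replicate 3 of the MSR-dCas9-Activator line at that time, the library with the outlying rRNA counts.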

How the results depend on the processing

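The replicate number was put in the model because the study did so. Deviations of libraries with the same number correlated at 0.123 to 0.433 up to 6 h after removal, but at -0.0155 (12 h) and 0.0165 (24 h) for number 2, so pairing was not shown at every time. Without the replicate block the count of called members went from 1 to 0 at the end of induction, from 2 to 1 at 3 h and 6 h, from 3 to 1 at 12 h and from 2 to 0 at 24 h, and within the MSR-dCas9-Activator line from 8 to 4. DESeq2 also called 4 there and 1 at 3 h and 24 h, as did scaling to mitochondrial mRNAs at 3 h and 24 h. With the 6 libraries of a time point alone, 0 were called at the end of induction and 1 at 3 h and at 24 h. At the end of induction 2 were called with DESeq2 size factors, with library sizes without TMM and by the adjusted p alone. Leaving out single libraries or numbers gave 0 before induction, 1 to 2 at its end, 2 to 3 at 3 h, 2 to 4 at 6 h (4 without MSR-dCas9-Activator replicate 2), 3 to 4 at 12 h and 1 to 2 at 24 h (1 without MSR-dCas9-Control replicate 1 or 2, MSR-dCas9-Activator replicate 1 or all libraries numbered 1).

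Scaling moved the median of all genes from 0.10, 0.16, 0.13, 0.12 and 0.01 in the 5 states to -0.25, -0.44, -0.58, -0.49 and -0.18 with mitochondrial mRNAs, and to 0.18, 0.29, 0.31, 0.33 and 0.16 with DESeq2 size factors. Reversals were seen only for differences that had not passed the test. For Neat1 at the end of induction they were 0.0763 (DESeq2), 0.0764 (its size factors), 0.0125 (without the rRNA-like genes), 0.0109 (no replicate block) and 0.0471 (6 libraries alone), and at 24 h 0.0725 for both DESeq2 settings, 7e-04 without TMM, 0.0466 and 0.1084. For Malat1 they were -0.2872 at the end of induction and -0.5831 at 12 h (mitochondrial mRNAs), -0.0749 at 12 h (without TMM), at 3 h 0.1309 (both DESeq2 settings), 0.0242 and 0.0926, and at 6 h 0.1327, 0.1328, 0.0166, 0.0108 and 0.128. AY036118 was at -0.2377 at 3 h with mitochondrial mRNAs. With libraries left out, ranges that crossed 0 were -0.0475 to 0.1842 for Kcnq1ot1 before induction, -0.0798 to 0.8475 (end of induction) and -0.7161 to 0.245 (6 h) for AY036118, -0.1433 to 0.2584, -1.0053 to 0.0214, -0.5107 to 0.0987 and -0.2086 to 0.0487 for Neat1 at the end of induction, 6 h, 12 h and 24 h, and -0.0526 to 0.2118, -0.2779 to 0.1973, -0.0437 to 0.1808 and -0.1235 to 0.4512 for Malat1 at 3, 6, 12 and 24 h. The causes were not tested.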
